A study of Petrolisthes cinctipes with 164 samples.

Results

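The comparison concerned 24 control crabs of the 82 crabs in the series, chosen by their titles. It set 10 crabs sampled late in recovery, at 24 and 30 h, against 14 crabs sampled early, at 0.5, 1 and 2 h. Each time point held 5 crabs, except 1 h with 4. The animals were field-collected porcelain crabs, Petrolisthes cinctipes, and none of the 24 was heat stressed. Control crabs were kept at 11 °C for 4 h while their partners were warmed to 30 °C, and all crabs then recovered together in water of 11 °C. RNA of 1 control crab and 1 heat stressed crab was hybridised to a pair of cDNA arrays, called a and b, on which the dyes were swapped. In all 24 pairs the control crab carried Cy3 on array a and Cy5 on array b. The other 17 control crabs, of 4 to 18 h, served only to place the differences in time.

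Each array held crabs of a single time point, so what an array contributed and what time contributed cannot be told apart between late and early crabs. Values are log2 intensities minus the median of their own channel, so that 0 is the level of the median probe and 1 unit is a 2-fold difference. The values of arrays a and b were averaged, and a crab counted as 1 sample. In 2 early crabs, replicate 5 of 0.5 h and replicate 1 of 2 h, arrays a and b were more than 2 units apart in 17 of the 24 probes named below, and in 2 late crabs, replicate 5 of 24 h and of 30 h, 1 sample description gives the other treatment. The labels give no tissue, and the probes carry only a plate position such as Pc35Hd23 (plate Pc35, row d, column 23), so no probe is named by gene here and no tissue marker could be checked.

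Petrolisthes cinctipes is an intertidal crab that is exposed to air and to warming at low tide. Ectotherms of this zone are known for inducible heat shock proteins, chaperones that hold or refold damaged proteins. In intertidal mussels, transcript levels are also known to cycle with tide and time of day. In a recovery series, unheated animals sampled alongside the heated ones show how far transcript levels differ between time points without the heat.

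Late control crabs differed from early control crabs in a large share of the array. Of 13818 probes, 2313 were higher (16.7%) and 3446 lower (24.9%) in late crabs, or 5759 in all (41.7%; limma, Benjamini-Hochberg adjusted p under 0.05). The differences were mostly small. The median difference was 0.83 among the probes called higher and -0.42 among those called lower. A difference of at least 1 log2 unit was reached by 812 of the higher probes (5.88%) but by only 50 of the lower ones (0.362%). The groups of crabs did not overlap in 65 probes that were higher (0.47%) and 25 that were lower (0.181%). Without the 2 late crabs of conflicting description, 2010 probes were higher and 2863 lower, and without the 2 early crabs whose arrays differed most in the named probes, a choice made after seeing the data, 2578 were higher and 3927 lower.

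The balance of directions depended on what each channel was set against. The median over all probes was -0.11 after subtraction of the channel median, -0.49 for the values as deposited, -0.48 after subtraction of the 75th percentile and -0.04 after quantile normalization. Relative to the channel median, 40.2% of the calls were higher in late crabs, against 9.76% as deposited (725 higher and 6705 lower), 12.9% with the 75th percentile (1151 and 7786) and 48.3% with quantile normalization (1448 and 1547). No probe called in one direction was called in the opposite direction under these alternatives (0 turned calls in each). Of the 2313 higher calls, 725 were kept as deposited, 1151 with the 75th percentile and 1326 with quantile normalization. All 3446 lower calls were kept as deposited and with the 75th percentile, but only 1010 with quantile normalization. The deposited values and the 75th percentile moved every difference downward, so lower calls could hardly turn there. A turn also required a pass in each fit, so its absence does not show that calls held.

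The spread of values within a crab differed as well. The standard deviation over the 13818 probes was 1.98 ± 0.08 in late crabs and 1.75 ± 0.11 in early crabs (SD, n = 10 and 14), ranging from 1.80 to 2.09 in late crabs and from 1.56 to 1.91 in early crabs. Late crabs were thus the more widely spread, with an overlap of the ranges between 1.80 and 1.91 (permutation test, two-sided, p = 0.0001, adjusted p = 0.0004 over 4 such tests). The deposited channel median was 7.60 ± 0.47 in late crabs and 7.98 ± 0.36 in early crabs (difference -0.38, permutation test, two-sided, adjusted p = 0.0349). The 95th percentile of the centred values lay at 4.87 ± 0.12 in late crabs and 4.56 ± 0.23 in early crabs, and the 5th percentile at -1.36 ± 0.22 in late crabs and -1.01 ± 0.19 in early crabs (permutation tests, two-sided, adjusted p = 0.00096 for each). The part of this spread in the calls was not tested.

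The direction of a call went with the level of the probe. Levels were taken from the 17 control crabs of 4 to 18 h, which do not enter the comparison, and the probes were divided into 10 classes of equal size. In the dimmest class, 1050 probes were lower in late crabs (76.0%) and 0 were higher, with a median difference of -0.37. In the ninth class, 485 probes were higher (35.1%) and 110 lower (7.96%), with a median difference of 0.34. In the brightest class, 463 were higher (33.5%) and 139 lower (10.1%). Without the dimmest 25% of probes, 2181 probes were called higher and 1191 lower.

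**Figure D1:**
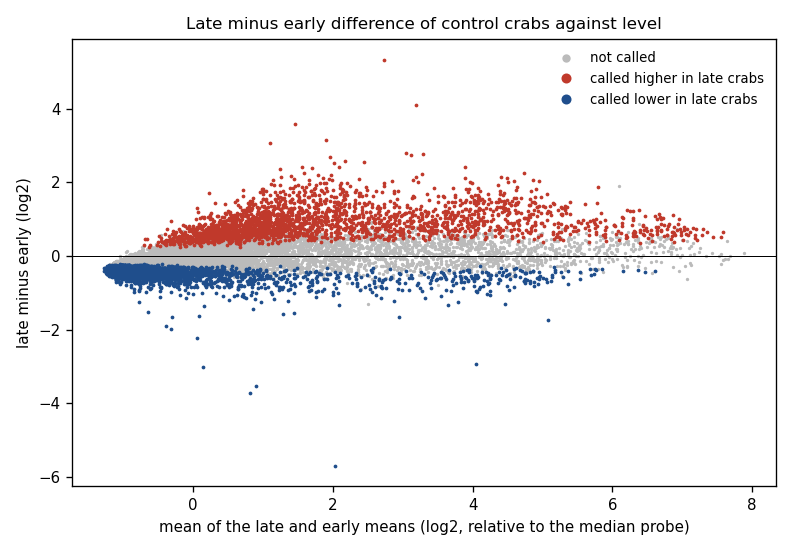
Late minus early difference of each of the 13818 probes in control crabs (log2, vertical axis) against the mean of its late and early means (log2 relative to the median probe, horizontal axis). Points are probes, coloured by the limma call; calls lower in late crabs (3446) crowd at the dim end, and calls higher (2313) lie at medium and high levels.

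Plates of origin differed in the same manner. On plate Pc03, 191 of 384 probes were higher in late crabs (49.7%) and 8 lower (2.08%), and on plate Pc04, 176 were higher (45.8%) and 11 lower (2.86%). Plate Pc33 had 141 higher (36.7%) and 26 lower (6.77%). On plates Pc09 to Pc14 and Pc20, between 48.2% and 65.4% of the probes were lower and at most 2.34% were higher. The median level was 2.67 on plate Pc03 and 1.77 on plate Pc04, the highest of the 36 plates, whereas plate Pc13, with the largest share of lower probes, had the lowest, -1.01. Plate and level therefore moved together, and their parts were not tested separately.

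**Figure D2:**
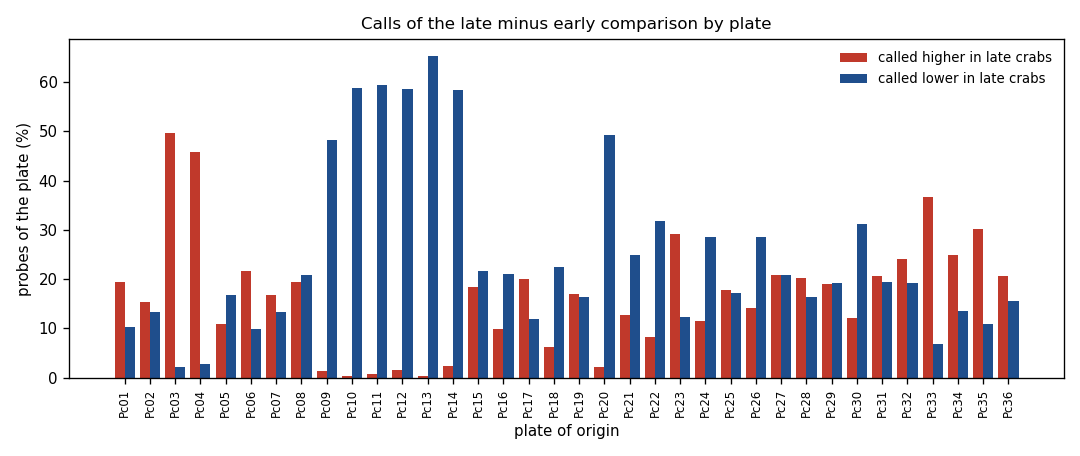
Share of the probes of each plate (%, vertical axis) that were called higher (red) or lower (blue) in late than in early control crabs, for the 36 plates of origin (horizontal axis). Plates Pc03 and Pc04 have the largest shares of higher probes (49.7% and 45.8%), and plates Pc09 to Pc14 and Pc20 the largest shares of lower ones.

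The largest rise was that of Pc06Wf08. Its level in late crabs was 4.87 at the lowest, 5.36 at the median and 5.92 at the highest, against -1.27, -0.72 and 4.86 in early crabs. The groups did not overlap, but only narrowly, since replicate 3 of 0.5 h reached 4.86 while 11 of the 14 early crabs lay below 0. The difference was 5.33 ± 0.53 (SE, adjusted p = 5.69e-08, limma). The values formed a step rather than a slope. Its medians at 12, 18, 24 and 30 h were -0.68, 4.98, 5.59 and 5.08, and the lowest crab of 18 h had 4.47 while the highest of 12 h had 1.96, a mean of -0.49 on array a and 4.40 on array b.

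Pc07Wn24 followed a similar course with less regularity. Late crabs ranged from 1.55 to 4.51 with a median of 3.52, and early crabs from -1.17 to 1.41 with a median of -0.57. The groups did not overlap, and the difference was 3.60 ± 0.30 (SE, adjusted p = 4.18e-09, limma). At 18 h, 1 of the 5 crabs still had -1.15 while the other 4 had 2.03 to 4.00.

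Other probes rose over several time points, though not all of them steadily. Pc33Hd11 had 3.89, 4.55 and 4.93 as lowest, median and highest value in late crabs, against 0.77, 1.55 and 3.27 in early crabs. No late crab fell within the early range. The difference was 2.79 ± 0.24 (SE, adjusted p = 5.9e-09, limma). Its medians at 4, 6, 12, 18, 24 and 30 h were 2.54, 1.45, 2.54, 3.29, 4.00 and 4.55. Some crab values between are means of unlike arrays, such as 1.74 on array a and 4.88 on array b in replicate 3 of 4 h.

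Pc33Hk18, from the same plate, ranged from 3.45 to 4.93 in late crabs and from 0.28 to 3.01 in early crabs, a difference of 2.75 ± 0.26 (SE, adjusted p = 2.08e-08, limma). Pc28Gh20 ranged from 2.87 to 3.71 in late crabs and from -0.29 to 1.94 in early crabs, a difference of 2.52 ± 0.20 (SE, adjusted p = 2.29e-09, limma). Neither probe showed an overlap between the groups by crab. The medians of Pc27Gf14 at 4, 6, 12, 18, 24 and 30 h were 0.83, 1.22, 1.59, 2.57, 3.17 and 4.10, and those of Pc35Hg15 were 1.16, 1.80, 2.25, 3.12, 3.62 and 4.05 at the same times. In both, a single early crab reached into the late range. Here too some crab values are means of unlike arrays, such as 1.05 on array a and 4.26 on array b of replicate 4 of 12 h in Pc27Gf14.

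A further set of probes was high or low by blocks of crabs, with reversals rather than a single rise over time. Pc04Nb08 was near 6 in 9 late crabs, which held 5.20 to 6.40, but replicate 5 of 30 h had -1.08. Among early crabs it was below 0 in 9 of 14 and between 5.52 and 6.83 in 3 crabs of 1 h. Its difference of 4.10 ± 1.04 (SE, adjusted p = 0.00357, limma) was 3.43 without the crabs of 24 h and no longer passed (adjusted p = 0.0861). Pc09Hn16 (3.15 ± 0.62, SE), Pc03Ne24 (2.77 ± 0.67) and Pc36Hm14 (2.69 ± 0.50) also overlapped between the groups. In Pc03Ne24 the 2 h crabs had a median of -0.72, although the 0.5 h crabs had 3.14 and the 1 h crabs 3.04. Its median was still -0.12 at 12 h and was 5.27 at 18 h. Pc05Wj16 was higher by 3.08 ± 0.29 (SE, adjusted p = 2.55e-08, limma), yet its 18 h median was -1.31, below the -0.75 of 0.5 h.

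The largest fall was that of Pc35Hd23, from plate Pc35. Its level was -1.76 at the lowest, -1.14 at the median and 0.66 at the highest in late crabs, against 1.68, 5.08 and 6.03 in early crabs. All 10 late crabs lay below all 14 early ones, and 12 of the early crabs had 4.58 or more. The difference was -5.70 ± 0.43 (SE, adjusted p = 9.13e-10, limma). The 5 crabs of 12 h had 5.22, 5.45, 2.35, -0.42 and -1.12, and no crab of 18 h was above -0.85. The value of 2.35 is the mean of 5.97 on array a and -1.28 on array b. The 4 crabs of 6 h, with means of 1.96 to 2.66, were likewise high on one array, at 4.66 to 5.53, and near or below 0 on the other, at -1.31 to 0.02.

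Pc36Hh15 ranged from -1.87 to -0.24 in late crabs and from 0.84 to 3.91 in early crabs, and its difference was -3.73 ± 0.32 (SE, adjusted p = 5.78e-09, limma). Pc35Hp15 ranged from -1.82 to -1.11 in late crabs and from -0.11 to 2.94 in early crabs (-3.02 ± 0.29, SE, adjusted p = 2.86e-08, limma). Pc35Hh23 ranged from -1.86 to -0.94 in late crabs and from -0.64 to 1.50 in early crabs (-1.90 ± 0.20, SE, adjusted p = 1.01e-07, limma). None of these 3 probes overlapped between the groups by crab. Pc35Hp15 was low before the late times, since its medians at 4, 6 and 12 h were 0.25, -1.16 and -1.04.

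Pc33Hp15 differed by -3.52 ± 0.35 (SE, adjusted p = 5.69e-08, limma) with an overlap through replicate 3 of 24 h at 1.08. This crab had -1.01 on array a and 3.16 on array b. Pc28Gc18 separated the late time points from each other. It lay between 1.64 and 1.78 in the 5 crabs of 24 h and between 3.20 and 3.87 in the 5 crabs of 30 h, against a median of 5.96 in early crabs, whose lowest value was 2.37. That value, of replicate 1 of 1 h, is the mean of -1.24 on array a and 5.98 on array b. The late minus early difference of Pc28Gc18 was -2.94 ± 0.37 (SE, adjusted p = 2.36e-06, limma). Pc35Hp23 (-2.23), Pc31Hl07 (-1.66), Pc24Cp17 (-1.66) and Pc09Hl05 (-1.62) were lower with overlapping groups. Without the crabs of 24 h, Pc09Hl05 did not pass (adjusted p = 0.112, limma).

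In another 2 probes the difference was lost without a single time point. Pc15Pn24 ranged from -1.64 to -0.89 in late crabs, and among early crabs it was at 1.29 to 5.69 in the 5 crabs of 0.5 h, of which replicates 4 and 5 were below 0 on array a, and at -1.38 to -0.78 in the 9 crabs of 1 and 2 h. The difference of -1.99 ± 0.77 (SE, adjusted p = 0.0398, limma) was -0.28 without the 0.5 h crabs (adjusted p = 0.0823). Pc03Nd03 had 5.55 to 7.03 in the 24 h crabs, -1.78 to 3.36 in the 30 h crabs and 4.87 to 6.93 in early crabs. The 30 h values near 3 are means of unlike arrays. Replicate 1 had 6.77 on array a and -0.06 on array b, replicate 3 had -1.10 and 7.50, and replicates 2 and 5 were split likewise, while replicate 4 was low on both. The difference of -1.74 ± 0.66 (SE, adjusted p = 0.0364, limma) turned to 0.35 without the 30 h crabs (adjusted p = 0.302).

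**Figure D3:**
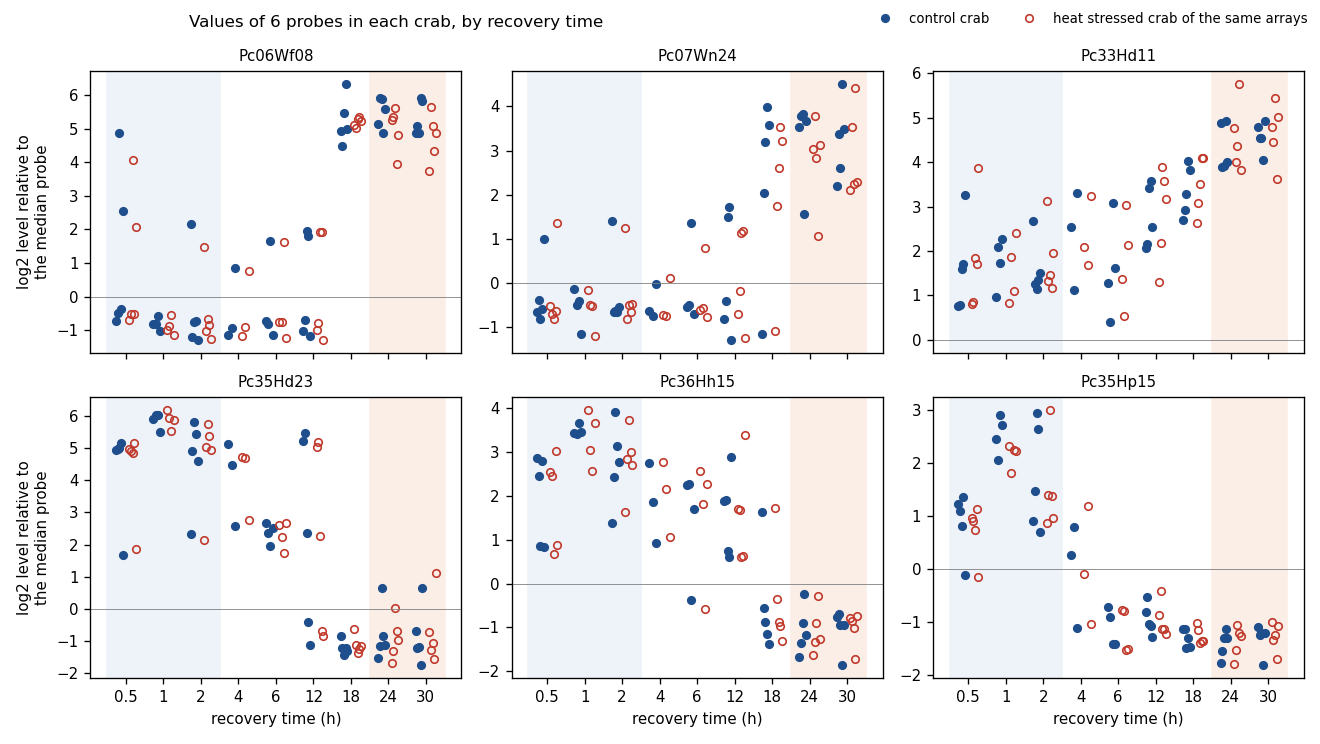
Level of 6 probes (log2 relative to the median probe, vertical axes) in each control crab (filled points) and in the heat stressed crab of the same arrays (open points) at the 9 recovery times (h, horizontal axes). All 6 were taken from the named probes whose groups do not overlap by crab. The separation of early times (left shading) and late times (right shading) in control crabs therefore follows from this choice. The open points lie at the levels of the filled ones.

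The probes that moved with these were sought by their correlation with each leading probe over the 24 crabs, as a description. The probes most like Pc06Wf08 were Pc07Wb24 and Pc27Gn04 (r = 0.93 each), followed by Pc29Gc12, Pc28Gh20 and Pc35Hc11 (r = 0.92 each). The probes most like Pc35Hd23 were Pc33Hp15 and Pc36Hh15 (r = 0.96 each), Pc35Hp15 and Pc35Hh23 (r = 0.95 each) and Pc35Hp07 (r = 0.94). All points of such a correlation share the arrays of the crabs. Among the 50 probes that were lower by at least 1 unit, 13 came from row p of their plate. That was the largest count among rows a to p, which are of nearly equal size, and row d followed with 6. Columns 1 and 24 gave 6 each. Plate Pc35, with 384 of the 13818 probes, also gave 6, more than any other plate. Of the 812 probes higher by at least 1 unit, 43 came from row p and 45 from plate Pc35. These probes had their own largest counts, with 82 in row d, 88 on plate Pc03, 76 on Pc04 and 75 on Pc33. Position was not tested.

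The heat stressed partners give the same arrays a second reading. Each late minus early change was therefore also taken in the 24 heat stressed crabs that shared the arrays of the 24 control crabs. There, 2290 probes were higher (16.6%) and 3421 lower (24.8%) in late crabs. Both channels of an array share the array, so this is no independent repeat. Of the probes called higher, 1919 were called in control and in heat stressed crabs alike, which is 83.0% of the control calls and 83.8% of the heat stressed ones, and of those called lower, 2942 (85.4% and 86.0%).

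The named probes had nearly equal changes in both treatments. Pc06Wf08 changed by 5.33 in control crabs and by 4.97 in heat stressed crabs, Pc35Hd23 by -5.70 in control crabs and -5.71 in heat stressed crabs, and Pc36Hh15 by -3.73 in control crabs and -3.67 in heat stressed crabs. The difference of the change between control and heat stressed crabs, in which anything added equally to both channels of an array cancels, was called in 34 probes as higher (0.246%) and in 64 as lower (0.463%), or 98 of 13818 (0.709%; limma). Its median size over all probes was 0.06. None of the 24 named probes was among the 98.

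The probes that did differ between the treatments were chosen after their values were seen. In Pc06Wn13 control crabs averaged 4.23 ± 0.58 late and 2.21 ± 0.70 early, a change of 2.02, while heat stressed crabs averaged 5.30 ± 0.65 late and 1.71 ± 0.93 early, a change of 3.59 (SD, n = 10 and 14). The control change was smaller by -1.58 (adjusted p = 0.0147, limma). Pc06Wg15 changed by 1.76 in control crabs and by 3.31 in heat stressed crabs (adjusted p = 0.0147 for the difference, limma). In the other direction, Pc25Cj03 changed by 1.11 in control crabs and by -0.37 in heat stressed crabs (difference 1.49, adjusted p = 0.0266, limma). Pc18Pf10 had the largest positive difference among the probes called, 1.70 (adjusted p = 0.0315, limma), although neither its control change of 0.90 (adjusted p = 0.0694, limma) nor its heat stressed change of -0.80 (adjusted p = 0.0686, limma) passed alone.

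**Figure D4:**
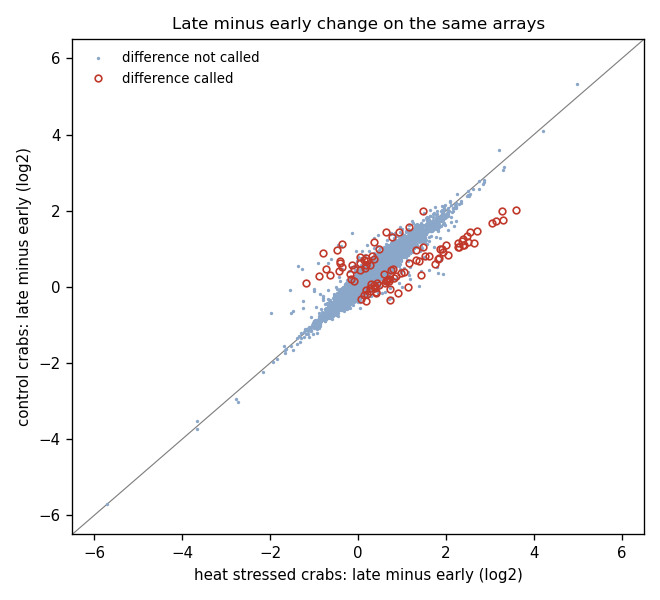
Late minus early change of each probe in control crabs (log2, vertical axis) and in the heat stressed crabs of the same arrays (log2, horizontal axis), with the line of equal change. Red circles are the 98 probes whose change differed between the treatments (limma) by the test; some of the other probes lie as far from the line, such as Pc02Hd18 with a difference of 1.90 (adjusted p = 0.0944, limma).

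Each crab had been read on 2 arrays, so that the arrays could be compared within a crab. Over the 24 named probes, 2 early crabs differed most between their arrays, with 17 probes more than 2 units apart in each, against 0 to 7 in the other 22 crabs. Replicate 5 of 0.5 h had 5.65 on array a and -0.58 on array b for Pc06Wf08, and -1.17 on array a and 4.53 on array b for Pc35Hd23. Replicate 1 of 2 h had the opposite order, with -0.88 on array a and 5.23 on array b for Pc06Wf08, and 6.14 and -1.51 for Pc35Hd23. Samples labelled as 1 crab thus gave values of the late range on one array and of the early range on the other. The groups, which did not overlap by crab in these 2 probes, therefore did overlap by array. The same held for the other named probes without an overlap by crab. Array a of replicate 5 of 0.5 h had 4.79 in Pc33Hd11, 4.84 in Pc33Hk18, 3.32 in Pc28Gh20 and -1.04 in Pc36Hh15. Array b of replicate 1 of 2 h had 3.99 in Pc07Wn24, -1.90 in Pc35Hp15 and -1.55 in Pc35Hh23. The dye differed between the arrays as well, as it did in the other 22 crabs.

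The heat stressed crab on each of these arrays had values close to those of the control crab on that array. For Pc06Wf08 the heat stressed partner of replicate 5 of 0.5 h had 4.81 on array a and -0.68 on array b, and that of replicate 1 of 2 h had -0.85 and 3.79. For Pc35Hd23 these values were -1.21 and 4.92 in the first pair and 5.80 and -1.50 in the second. The 2 crabs did not stand apart in the same way over the whole array. Of all 13818 probes, 565 were more than 2 units apart between arrays a and b of control replicate 5 of 0.5 h, whereas 38 on array a and 13 on array b were that far apart between its control and heat stressed crab. For replicate 1 of 2 h the numbers were 811 between the arrays and 85 and 76 within them. Other crabs reached similar numbers between their arrays, such as 734 in replicate 2 of 0.5 h and 626 in replicate 1 of 30 h, and the median was 244 in late crabs and 282.5 in early crabs. Between the 2 crabs of an array, the median was 42.5 on arrays of late crabs and 30.0 on arrays of early crabs.

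This was summarised by counting, for each array, how many of the 24 named probes lay nearer to the mean of the late crabs than to that of the early crabs. The means come from the same 24 crabs, so the count is a description. All 20 arrays of late crabs had more than 12 such probes (16 to 24, median 23). Of the 28 arrays of early crabs, 26 had at most 5, and the exceptions were array a of replicate 5 of 0.5 h with 19, where array b had 0, and array b of replicate 1 of 2 h with 20, where array a had 4. The heat stressed crab fell on the same side of 12 as the control crab on 48 of 48 arrays. Over all 41 pairs this held on 80 of 82 arrays. The exceptions were array a of replicate 4 of 12 h (12 in the control and 13 in the heat stressed crab) and array b of replicate 1 of 18 h (14 and 12).

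Control crabs of the intermediate times, which did not enter the means, were less clearly divided. Their counts ran from 4 to 17 at 4 h, 9 to 21 at 6 h, 5 to 21 at 12 h and 14 to 23 at 18 h. At 6 h, both arrays of replicates 1, 2 and 4 had 9 to 11, between the counts of most early arrays and those of late arrays. More than 12 probes lay nearer to the late mean on 1 of 6 arrays of the 4 h crabs, 1 of 8 of the 6 h crabs, 3 of 10 of the 12 h crabs and 10 of 10 of the 18 h crabs. In 5 of these 17 crabs the 2 arrays fell on different sides. Replicate 3 of 6 h, for example, had 11 probes on array a and 21 on array b. In replicate 5 of 12 h the counts were 10 on array a and 15 on array b, the latter nearer to the dividing value of 12 than the 21.

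**Figure D5:**
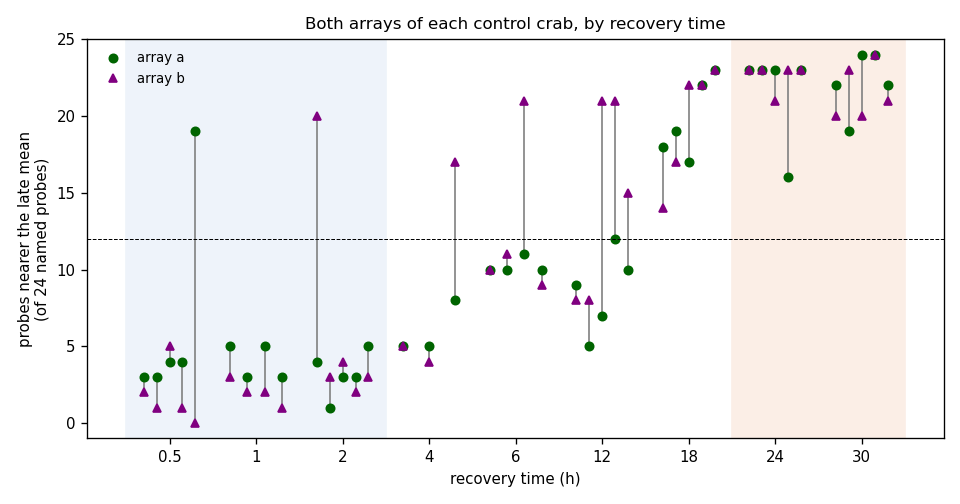
Number of the 24 named probes nearer to the mean of late than of early control crabs (vertical axis) on array a (circles) and array b (triangles) of each control crab, joined by a line, at the 9 recovery times (h, horizontal axis; early and late times shaded, dashed line at 12). In 2 early crabs and in 5 crabs of 4 to 18 h the arrays lie on different sides of the line.

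Across all probes, the 2 crabs of an array correlated at 0.95 to 0.99, while the 2 arrays of a control crab correlated at 0.89 to 0.96 in late crabs and 0.82 to 0.96 in early crabs. On 48 of 48 arrays the control crab correlated more highly with the heat stressed crab of that array than with itself on its other array. Without replicate 5 of 0.5 h and replicate 1 of 2 h, all 24 named probes passed in the same direction. The probes and the 2 crabs left out were both chosen by these same values, so this is no separate evidence.

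Neighbouring time points differed much less than late and early crabs did. Within the late group, 30 h against 24 h gave 3 probes higher and 3 lower (0.0217% each). Within the early group, 1 h against 0.5 h gave 2 higher (0.0145%) and 4 lower (0.0289%), 2 h against 0.5 h gave 0 higher and 3 lower (0.0217%), and 2 h against 1 h gave 1 higher (0.00724%) and 0 lower (limma; unadjusted p under 0.05 in 886, 665 and 875 probes). Each late time point against each early one, added after seeing the data, gave 2898 calls for 24 h against 0.5 h (21%), 1614 against 1 h (11.7%) and 1744 against 2 h (12.6%), and 1891 calls for 30 h against 0.5 h (13.7%), 1206 against 1 h (8.73%) and 1024 against 2 h (7.41%). These groups hold 4 or 5 crabs, so fewer crabs stand behind such a count than behind the 24.

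In the 17 control crabs between, 12 and 18 h against 4 and 6 h gave 1 probe higher and 0 lower (0.00724%; unadjusted p under 0.05 in 777 probes, limma). In a fit of all 41 control crabs, also added after seeing the data, neighbouring times differed most between 12 and 18 h, where 19 probes were higher and 22 lower at 18 h (0.297%), and between 18 and 24 h, with 19 higher and 11 lower at 24 h (0.217%). The step to 30 h gave 11 calls (0.0796%), that to 1 h 12 (0.0868%), those to 2 h and 4 h 2 each (0.0145%), that to 6 h 5 (0.0362%) and that to 12 h 1 (0.00724%).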

How the data were processed

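Processed log2 intensities were deposited by the authors for 13818 probes in 164 channels of 82 arrays. How they corrected and normalized these values is not given in the sources used here. Treatment, time, replicate and array were read from the sample titles; in 2 of the 48 control channels, 1 each of replicate 5 of 24 h and of 30 h, the description gives the other treatment, and the title was used. Each channel was centred on its median, arrays a and b were averaged per crab, and late (24, 30 h) was compared with early (0.5, 1, 2 h) with limma 3.58.1 in R 4.3.3 (lmFit, eBayes, Benjamini-Hochberg over all probes, adjusted p under 0.05), with no filter on dim probes. The fits and the permutation test were first tested on simulated data. Precision rests on the number of crabs and their spread. Each control crab was read on its own pair of arrays, so this spread includes that between arrays, and the SE and p-values do not separate the 2. The labels number each crab as a separate animal.

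Heat stressed crabs were matched to the control crabs of the same time, replicate number and array letter. The change was also compared within pairs, within each group of times, and between 12 and 18 h and 4 and 6 h. Crab levels were compared by permutation (100000 resamples, scipy 1.17.1). The named probes are the 12 largest rises and 12 largest falls among calls with the same sign in Cy3 alone and Cy5 alone. The comparison and the rules were chosen with earlier results of these data known. Gene lists that had been drawn up need gene names, which were not used here. Alternatives covered scaling, dye, dim probes, the fit, the replicate block, and each time point and crab left out.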

Additional observations from a re-analysis of the deposited data

Results flagged for a closer look

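Among 146 groups of control crabs examined for a single crab standing apart from the rest of its group, 33 held such a crab. Chance gives about 1 in 20 for independent groups. These groups share crabs, and each late crab also counts within its time point, so the 33 are not independent of each other. Among all late crabs, this was so for Pc04Nb08 (-1.08 in replicate 5 of 30 h, next value 5.20), Pc27Gf14 (2.06, next 3.15), Pc03Nd03 (-1.78, next 2.53) and Pc09Hl05 (1.96, next 0.05).

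Within 24 h the crabs standing apart had 1.55 in Pc07Wn24, 3.43 in Pc03Ne24, 2.06 in Pc27Gf14 and 1.08 in Pc33Hp15. Within 30 h they had -1.08 in Pc04Nb08, 3.28 in Pc05Wj16, -1.87 in Pc36Hh15, -1.82 in Pc35Hp15 and -1.78 in Pc03Nd03.

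Within 0.5 h the values, all of replicate 5, were 2.61 in Pc04Nb08, 1.00 in Pc07Wn24, 1.70 in Pc27Gf14, 1.68 in Pc35Hd23, 0.51 in Pc33Hp15, -0.64 in Pc35Hh23 and 6.93 in Pc03Nd03. Within 1 h they were -1.28 in Pc04Nb08, 0.83 in Pc36Hm14, 0.51 in Pc28Gh20, 3.67 in Pc36Hh15 and 2.37 in Pc28Gc18. Within 2 h they were, all in replicate 1, 2.17 in Pc06Wf08, 2.78 in Pc04Nb08, 1.41 in Pc07Wn24, 1.40 in Pc09Hn16, 2.68 in Pc33Hd11, 2.54 in Pc03Ne24, 1.94 in Pc28Gh20 and 1.64 in Pc24Cp17. Replicate 5 of 0.5 h and replicate 1 of 2 h are the 2 crabs whose arrays differed most in the named probes. Most of these values are therefore means of unlike arrays, such as 6.14 on array a and -0.92 on array b for Pc04Nb08 at 0.5 h.

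The late minus early change differed between control and heat stressed crabs of the same arrays in 98 probes by a test of the difference itself, with a higher change in control crabs in 34 and a lower one in 64.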

How the results depend on the processing

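Of the 24 named probes, 20 kept direction and call under all 41 alternatives. These probes were picked as the largest calls with the same sign in both dyes, and the alternatives refit the same crabs. Keeping a direction is therefore no separate evidence for it. Pc15Pn24 lost its call in 21 and Pc03Nd03 in 10, and Pc03Nd03 turned to 0.348 without 30 h; Pc04Nb08 and Pc09Hl05 lost theirs without 24 h. The late minus early counts, 2313 higher and 3446 lower, became 725 and 6705 as deposited, 1448 and 1547 with quantile normalization, 1151 and 7786 with the 75th percentile, 1233 and 803 with Cy5 alone, and 812 and 50 at 1 log2 unit or more. The lower count was 1191 without the dimmest 25% of probes and 1901 without 0.5 h, and without 24 h the counts were 1514 and 1084. Leaving out 1 crab gave 2084 to 2510 higher and 2861 to 3956 lower. Heat stressed crabs gave 670 and 6775 as deposited and 1384 and 1537 with quantile normalization. The difference between treatments gave 15 higher and 35 lower with quantile normalization, and 67 higher without the 2 pairs whose arrays differed most in the named probes. The small counts moved as well: 12 and 18 h against 4 and 6 h gave 0 higher without crabs of conflicting description, 30 against 24 h gave 1 lower as deposited and with quantile normalization, 1 against 0.5 h gave 0 higher as deposited and 1 with quantile normalization, 2 against 0.5 h gave 1 lower as deposited, and 2 against 1 h gave 3 higher with the replicate block. The cause was not tested. Crabs of equal number at different times did not pair (median correlation of deviations 0.02 over 46 pairs, 18 of them over 0.1), and the replicate block gave 2388 higher and 3346 lower.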
